A study of Mus musculus with 9 samples.

Results

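The 10 genes of the G1 machinery described here were the D-type cyclins Ccnd1, Ccnd2 and Ccnd3, their kinases Cdk4 and Cdk6, the kinase inhibitors Cdkn1a and Cdkn1b, and the retinoblastoma genes Rb1, Rbl1 and Rbl2. They were taken by symbol from 55401 annotated genes, and 10 of 10 passed the filter on low counts that left 16046 genes for testing. Ccnd3 was picked by its higher level with scrambled peptide than in wild type, which an earlier analysis of these libraries had called. That difference is a description here, and no p-value is given for it. The other 9 were taken for their place in the pathway. RNA came from nuclei positive for NeuN, a protein of mature neuronal nuclei, sorted out of cortical tissue at an age of 7 to 9 months. There were 3 groups of 3 libraries. One held untreated wild-type mice. The others held mice with a P301S tau transgene, a human tau mutation that causes inherited dementia, given either a scrambled peptide or Cdk5i, a peptide made to inhibit the neuronal kinase Cdk5. Both peptides were given intraperitoneally every other day, at a dose of 20 mg/kg. Wild-type mice received no injection, so genotype and injection cannot be told apart in a comparison with them. The labels name neither the transgenic line nor the promoter of the transgene, and they leave unsaid whether the libraries are separate animals. The p-values then measure only the spread between these libraries, which may be technical. The first comparison sets scrambled peptide against wild type, the second Cdk5i against scrambled peptide, and the third sets Cdk5i against wild type.

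D-type cyclins are made when a cell receives growth signals and switch on Cdk4 and Cdk6. These kinases phosphorylate the retinoblastoma proteins, which then release E2F transcription factors that drive the genes of DNA replication. Neurons are held outside the cell cycle, and the return of cell cycle proteins has been described in neurons under tau and amyloid stress. Cyclin D2 also serves the division of neural progenitors, and p27, the product of Cdkn1b, takes part in the exit of neurons from the cycle.

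Ccnd3 (ENSMUSG00000034165) lies on the forward strand of chromosome 17, 47505051 to 47599691 in GRCm38, and RefSeq gives it 2 starts that are 88416 bases apart. Read pairs were counted over the whole gene, exons and introns together, so the counts do not tell RNA of one start from RNA of the other. The 250 bases before each start are shown because this is the gene around which the set was drawn, and those of Rbl1 because, of the members with a RefSeq window, it alone held an E2F motif. They are RefSeq sequence on GRCm38.p6, read 5′ to 3′ on the strand of the gene, with matches to the searched motifs in capitals.
Ccnd3 upstream start, chr17:47504801-47505050: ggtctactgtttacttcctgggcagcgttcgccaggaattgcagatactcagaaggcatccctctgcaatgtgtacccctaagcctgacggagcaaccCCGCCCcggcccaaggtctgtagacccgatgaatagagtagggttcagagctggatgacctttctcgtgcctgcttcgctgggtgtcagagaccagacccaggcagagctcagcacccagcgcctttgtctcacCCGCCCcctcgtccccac
Ccnd3 downstream start, chr17:47593217-47593466: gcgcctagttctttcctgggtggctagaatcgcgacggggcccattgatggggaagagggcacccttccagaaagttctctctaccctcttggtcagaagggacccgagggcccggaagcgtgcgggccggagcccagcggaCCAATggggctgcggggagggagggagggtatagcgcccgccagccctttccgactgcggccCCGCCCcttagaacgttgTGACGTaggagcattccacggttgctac
Rbl1, chr2:157204535-157204784, reverse strand: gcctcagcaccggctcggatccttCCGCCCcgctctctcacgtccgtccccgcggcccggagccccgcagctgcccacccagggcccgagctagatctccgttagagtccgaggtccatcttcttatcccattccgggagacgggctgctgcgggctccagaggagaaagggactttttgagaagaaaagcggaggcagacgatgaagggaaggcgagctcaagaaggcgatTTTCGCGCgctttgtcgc

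The motifs searched on both strands were the E2F forms TTTGGCGC, TTTCGCGC, TTTCCCGC and TTTGCCGC, the E-box CACGTG, the GC box GGGCGG, the CRE core TGACGT and the CCAAT box. Each motif was searched separately, so that matches could overlap. The upstream start of Ccnd3 had 2 GC boxes and none of the others, and the downstream start had a CCAAT box at -108, a GC box at -46 and a CRE core at -28, counted from the start. Of 32851 RefSeq windows of this length, 32.7% held a GC box, 33.8% a CCAAT box and 6.47% a CRE core. Rbl1 had the E2F letters TTTCGCGC at -18, a motif found in 1.86% of windows. The window of Cdk4 held 4 E-boxes and that of Cdk6 held 1, and 6.02% of all windows held at least 1. Cdkn1b had a GC box and 2 CCAAT boxes, one of the 2 windows of Cdkn1a had 2 GC boxes, and that of Rbl2 had none of these motifs. RefSeq windows were matched for 7 members, the others being Ccnd1, Ccnd2 and Rb1. A match is a match of letters only.

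The libraries held 21584712 to 26715938 counts. Pairs of libraries of 1 group differed by far more than counting noise (chi-square per gene 8.96 to 27.0), so none was a copy of another. Rbfox3, the gene of NeuN, measured 1184 ± 110.2 CPM (counts scaled to a common library total, with TMM factors) in wild type, 1293 ± 55.1 in the scrambled group and 1401 ± 157.9 in the Cdk5i group (SD, n = 3). The microglial markers C1qa and Trem2 had 0 to 2 and 0 to 5 counts per library, and the endothelial marker Cldn5 0 to 3.

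The members covered a wide range of levels. Per Mb of gene, over the 9 libraries, Cdk4 had the highest mean level at 1470 CPM per Mb, with 1076 CPM per Mb in its lowest library. Ccnd2 and Rbl2 followed with 788 and 787 CPM per Mb, and Rb1 with 707. The ranges of Ccnd2, Rbl2 and Rb1 overlapped, and Ccnd2 exceeded Rbl2 in 5 of 9 libraries. Cdkn1b stood apart from both neighbours in this order at 411 CPM per Mb. Ccnd1 (142 CPM per Mb), Cdkn1a (124) and Rbl1 (72.0) came next. Ccnd1 overlapped Cdkn1a and Cdkn1a overlapped Rbl1, while Rbl1 was above Cdk6 in 9 of 9 libraries without overlap. Cdk6 (46.2) and Ccnd3 (45.6) were last and overlapped, Cdk6 being the higher in 5 of 9 libraries. These levels divide by the full gene length, introns included, so genes with long introns come out low.

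**Figure D1:**
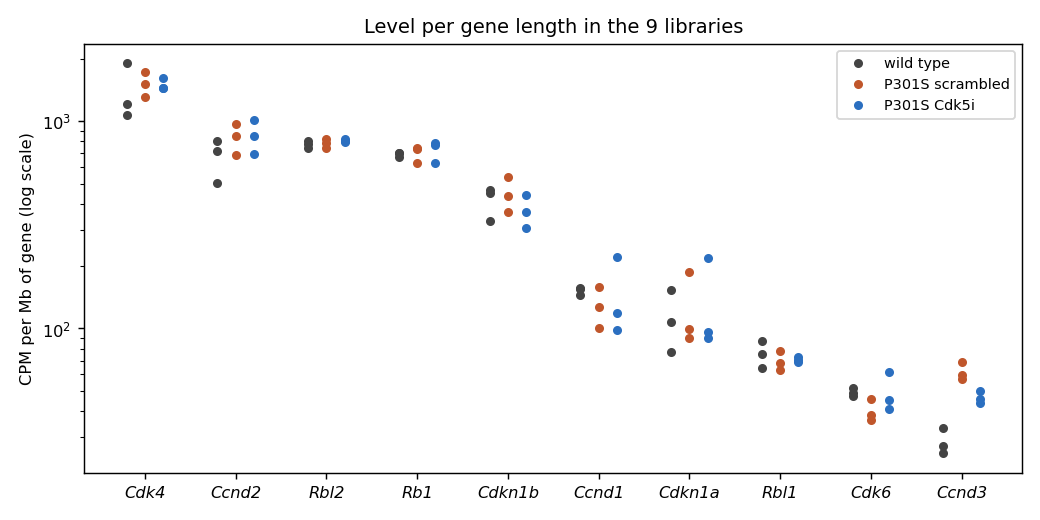
Level per Mb of gene (log axis) of the 10 G1 genes in the 9 libraries, coloured by group, in the order of their means. Cdk4 is highest at a mean of 1470 CPM per Mb and Ccnd3 lowest at 45.6.

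Ccnd3 encodes cyclin D3. Its counts were 66, 55 and 52 in wild-type replicates 1 to 3, 169, 123 and 142 with scrambled peptide, and 93, 114 and 123 with Cdk5i. As CPM these were 3.13, 2.57 and 2.36 in wild type, 6.52, 5.40 and 5.63 in the scrambled group, and 4.15, 4.34 and 4.70 in the Cdk5i group. No group overlapped another: the scrambled-peptide libraries were highest, the Cdk5i libraries lay between, and the wild-type libraries were lowest. The group means were 2.69 ± 0.397, 5.85 ± 0.590 and 4.40 ± 0.277 CPM (SD, n = 3) for wild type, scrambled peptide and Cdk5i. The spread between libraries of a group, 14.8, 10.1 and 6.29% of the mean, was close to what counting alone gives at these counts (13.2, 8.31 and 9.53%). The scrambled group stood 2.18-fold above wild type, a log2 fold change of 1.12, the difference by which the gene was picked. In bulk nuclei, a change in the number of nuclei of a type cannot be told apart from a change in RNA per nucleus. On its own strand Ccnd3 overlapped no other annotated gene, and on the other strand 361 bases of it lay under Bysl.

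Between Cdk5i and wild type Ccnd3 had a log2 fold change of 0.71 (SE 0.16, interval 0.37 to 1.05) and an edgeR adjusted p of 0.138. Between Cdk5i and scrambled peptide its log2 fold change was -0.41 (SE 0.15, interval -0.73 to -0.09), with an edgeR adjusted p of 0.842. Neither difference passed the test over all genes, although every library kept its side. Both comparisons share libraries with the one for which the gene was picked. Over the alternatives tried, the edgeR, DESeq2 and limma adjusted p of Cdk5i against wild type ran from 0.0169 to 0.393, and of Cdk5i against scrambled peptide from 0.628 to 1.00.

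**Figure D2:**
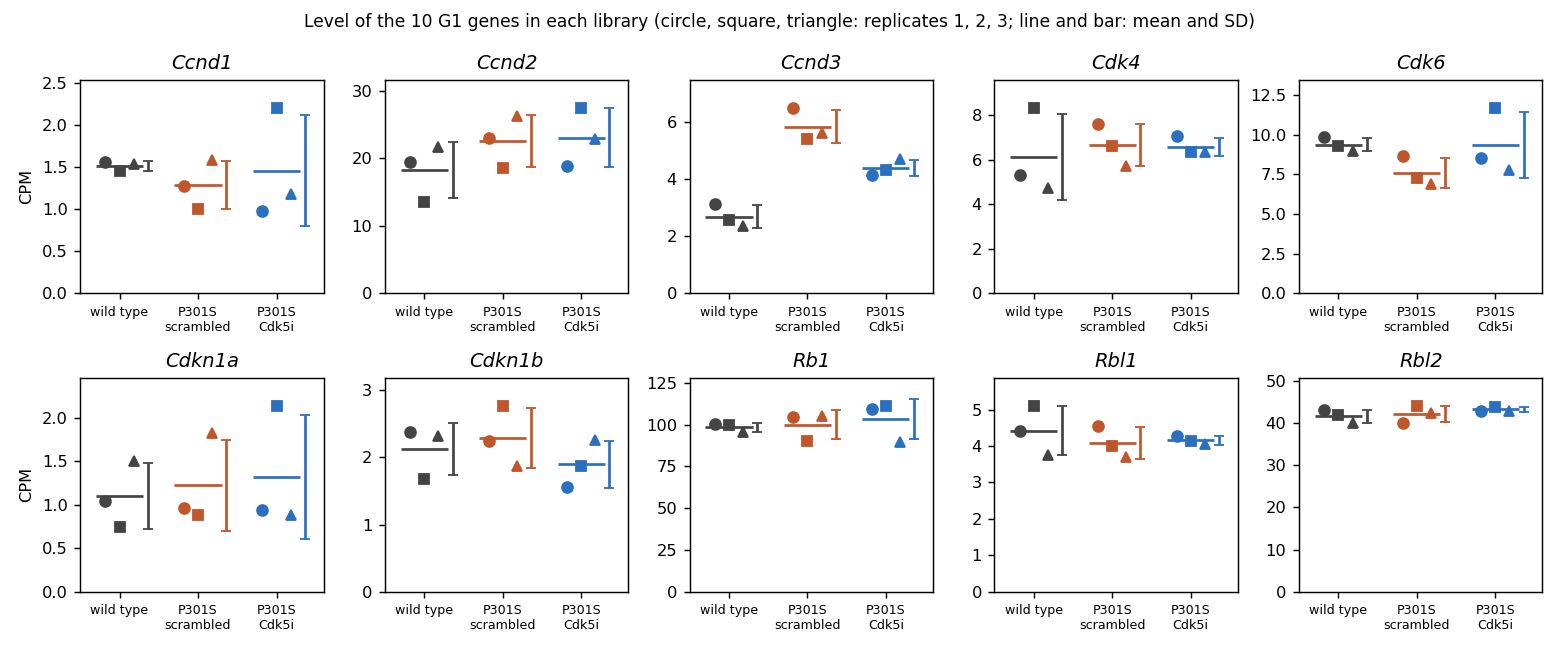
CPM of each of the 10 genes in each library, by group, with all vertical axes starting at 0 and replicates 1, 2 and 3 drawn as circle, square and triangle; lines and bars give the mean and SD of 3 libraries. The 3 groups of Ccnd3 do not overlap, while those of Ccnd1, Ccnd2, Cdk4, Cdkn1a, Cdkn1b and the retinoblastoma genes do.

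The other D-type cyclins did not share this order. Ccnd2, the gene of cyclin D2 (chr6:127125162-127152193, reverse strand, GRCm38 here and for the genes that follow), measured 19.4, 13.6 and 21.6 CPM in wild-type replicates 1 to 3, 22.9, 18.6 and 26.3 with scrambled peptide, and 18.8, 27.5 and 22.8 with Cdk5i. Its 3 groups overlapped, and wild-type replicate 2 was the lowest library. The log2 fold change against wild type was 0.31 with scrambled peptide (95% interval -0.15 to 0.77, edgeR adjusted p = 0.654) and 0.34 with Cdk5i (interval -0.12 to 0.80, edgeR adjusted p = 0.585).

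Ccnd1, the gene of cyclin D1 (chr7:144929931-144939925, reverse strand), was read at 22 to 58 counts per library. It measured 1.56, 1.45 and 1.54 CPM in wild type, 1.27, 1.01 and 1.59 in the scrambled group, and 0.98, 2.21 and 1.18 in the Cdk5i group. Cdk5i replicate 2 was the highest of the 9 libraries and Cdk5i replicate 1 the lowest. Log2 fold changes were -0.23 for scrambled peptide against wild type (interval -0.89 to 0.43, edgeR adjusted p = 0.839), 0.18 between the peptides (interval -0.47 to 0.84, edgeR adjusted p = 0.977) and -0.05 for Cdk5i against wild type (interval -0.70 to 0.60, edgeR adjusted p = 0.971).

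Of the counts of the D-type cyclins together, Ccnd3 took 12.3 ± 2.75% in wild type, 19.9 ± 2.64% in the scrambled group and 15.5 ± 2.41% with Cdk5i (SD, n = 3). Per length its shares were 3.41 ± 0.769, 6.11 ± 0.962 and 4.57 ± 0.877%. By counts and per length, the Ccnd3 shares of the Cdk5i libraries overlapped those of wild type and those of scrambled peptide. The wild-type and scrambled-peptide shares rest on the same Ccnd3 counts by which the gene was picked. Ccnd2 supplied 80.8 ± 3.79, 75.8 ± 2.26 and 79.6 ± 1.09% of the counts in the same order of groups. Cyclin D2 RNA was thus the main D-type cyclin RNA in every group, by counts and per length.

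Cdk4 (chr10:127063534-127067920, forward strand) and Cdk6 (chr5:3341485-3531008, forward strand) encode the kinases that D-type cyclins activate. Cdk4 ranged from 4.72 to 8.33 CPM in wild type, from 5.71 to 7.60 in the scrambled group and from 6.34 to 7.05 with Cdk5i, the wild-type group spanning both others. Its log2 fold changes were 0.12, -0.015 and 0.10 in the first, the second and the third comparison, with edgeR adjusted p values of 0.870, 0.997 and 0.878. Cdk6 measured 9.82, 9.27 and 8.99 CPM in wild type, 8.64, 7.24 and 6.86 in the scrambled group, and 8.53, 11.7 and 7.75 in the Cdk5i group. The scrambled-peptide libraries of Cdk6 lay below the wild-type ones without overlap, at -0.30 on the log2 scale (interval -0.63 to 0.03), which missed the threshold (edgeR adjusted p = 0.536). Between the peptides Cdk6 had a log2 fold change of 0.30 (interval -0.03 to 0.63, edgeR adjusted p = 0.933) with overlapping groups.

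Cdkn1a (chr17:29090976-29100727, forward strand) encodes p21, an inhibitor that p53 induces, and it had the lowest counts of the members, 16 to 56 per library. It measured 1.04, 0.75 and 1.50 CPM in wild type, 0.96, 0.88 and 1.82 in the scrambled group, and 0.94, 2.13 and 0.88 in the Cdk5i group. The highest libraries were Cdk5i replicate 2, which was also the highest for Ccnd1, and scrambled replicate 3. Its intervals were the widest of the members: the log2 fold changes of 0.16, 0.11 and 0.27 in the 3 comparisons had intervals of -0.75 to 1.07, -0.77 to 0.99 and -0.64 to 1.17, with edgeR adjusted p values of 0.929, 0.994 and 0.853. A log2 fold change of 1 lay inside the first and the third of these intervals. Cdkn1b, the gene of p27 (chr6:134920401-134925513, forward strand), measured 2.12 ± 0.381 CPM in wild type, 2.29 ± 0.453 in the scrambled group and 1.89 ± 0.346 in the Cdk5i group (SD, n = 3). Its largest difference was a log2 fold change of -0.26 between the peptides (interval -0.75 to 0.22, edgeR adjusted p = 0.966).

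The retinoblastoma genes were the most evenly read. Rb1 (chr14:73183673-73325822, reverse strand), which encodes the pocket protein Rb, measured 98.4 ± 2.75, 99.8 ± 8.62 and 103.2 ± 12.1 CPM in wild type, scrambled peptide and Cdk5i (SD, n = 3). Rbl2, the gene of p130, the family member found with E2F4 in resting cells (chr8:91070057-91123844, forward strand), measured 41.6 ± 1.57, 42.2 ± 1.99 and 43.2 ± 0.611 CPM. Rbl1 (chr2:157145893-157204534, reverse strand), the gene of p107 and itself a target of E2F, measured 4.43 ± 0.667, 4.08 ± 0.437 and 4.16 ± 0.119 CPM. For scrambled peptide against wild type the log2 fold changes were 0.02 for Rb1 (interval -0.17 to 0.21), 0.02 for Rbl2 (interval -0.12 to 0.15) and -0.12 for Rbl1 (interval -0.45 to 0.22). Adjusted p values from edgeR ranged from 0.794 to 0.980 for Rb1 and Rbl2 and from 0.839 to 0.996 for Rbl1 over the 3 comparisons. On its own strand 2.57% of Rb1 lay under the gene model Gm17233, and read pairs there were left out of the counts.

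**Figure D3:**
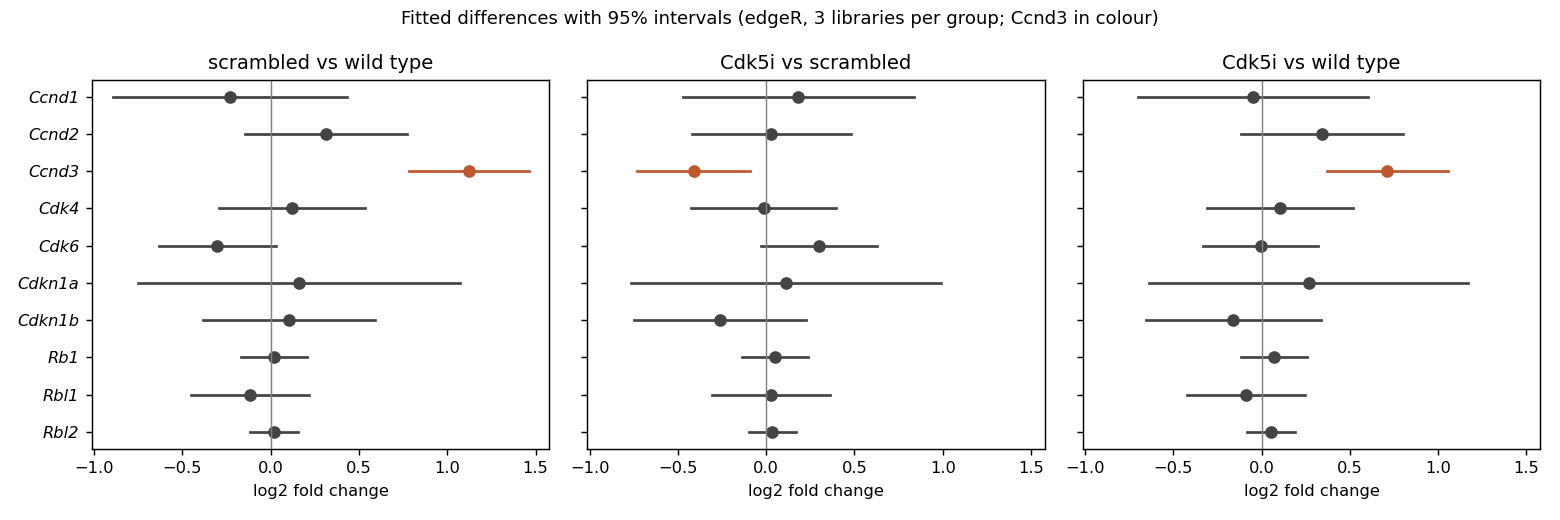
Log2 fold changes (points) with 95% intervals (lines) of the 10 genes in the 3 comparisons, from the edgeR fit to 9 libraries. Ccnd3 (orange) is at 1.12, -0.41 and 0.71, the first being the value by which it was picked, and the intervals of the other 9 genes include 0 in each panel.

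The first comparison asked how tau transgenic neurons without the inhibitor stood against wild-type neurons. Ccnd3 was 1 of the genes that edgeR called here, 0.0810% of all genes tested, or 0.0374% called higher. Since it was picked by this call, nothing is read from that. The call was lost without wild-type replicate 2, wild-type replicate 3, scrambled replicate 1 or scrambled replicate 2, and its log2 fold change was between 1.04 and 1.25 with any 1 library left out. Of the other 9 members, 0 passed by edgeR, DESeq2 or limma-voom, and 0 had an unadjusted edgeR p under 0.05, a mark that 10.1% of all genes reached. Groups did not overlap for 1 of these 9, Cdk6, against 16.3% of all genes, or 8.03% in its direction. The median log2 fold change of the 9 was 0.02, against 0.0084 over all genes.

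The second comparison asked what Cdk5i changed in P301S mice relative to scrambled peptide. Of the 10 members 0 passed by edgeR, against 0.0125% of all genes, and 0 passed by DESeq2 or limma-voom. Ccnd3 had an unadjusted edgeR p under 0.05, as did 5.33% of all genes, and its groups did not overlap, as for 10.3% of all genes, 5.38% in its direction. The median log2 fold change of the other 9 was 0.04, against -0.0095 over all genes. In the third comparison, of Cdk5i with wild type, 0 of 10 passed by edgeR, against 0.0748% of all genes, and 0 by limma-voom, while DESeq2 called 1, Ccnd3. An unadjusted edgeR p under 0.05 was found for Ccnd3 alone, against 11.0% of all genes, and groups did not overlap for Ccnd3 alone, against 16.3% of all genes, or 8.03% in its direction. The other 9 had a median log2 fold change of 0.05, against -0.0051 over all genes.

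The wider cell cycle genes did not pass in any comparison. In 7 lists of 180 genes, of which 142 were tested, edgeR called 0 in each of the 3 comparisons. An unadjusted edgeR p under 0.05 was found for 9 of the 142 for scrambled peptide against wild type, 2 between the peptides and 8 for Cdk5i against wild type, against 10.1, 5.33 and 11.0% of all genes. Of all genes tested, 51.7, 47.2 and 48.8% had a positive log2 fold change in the first, the second and the third comparison. The lists had been written with earlier results of these data known.

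Genes that carry the signal from the D-type cyclins into S phase were partly unread. Of 30 regulators of S-phase entry 21 were tested. Cdk2, the kinase that acts after Cdk4 and Cdk6, had 0 or 1 count per library with no same-strand gene over it, and the inhibitor genes Cdkn2a, Cdkn2b and Cdkn2c had at most 2 counts per library. Of the 21, 13 had positive log2 fold changes for scrambled peptide against wild type, with a median of 0.04. The members of this list with the highest levels were Gsk3b, a kinase that marks cyclin D for destruction, and Fbxw7 and Ambra1, of ubiquitin ligases that remove cyclin E and cyclin D. Gsk3b measured 217.0 CPM in wild type, 216.3 in the scrambled group and 229.2 in the Cdk5i group. Fbxw7 had a log2 fold change of -0.13 and Ambra1 one of -0.02 for scrambled peptide against wild type, with edgeR adjusted p values of 0.620 and 0.932.

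The genes that E2F drives did not pass either. Of 30 E2F target and replication genes 24 were tested, 14 of them with positive log2 fold changes for scrambled peptide against wild type (median 0.10) and 9 between the peptides (median -0.09). Mcm7, of the replicative helicase, measured 5.92 CPM in wild type, 6.56 in the scrambled group and 5.62 in the Cdk5i group. The DNA polymerase gene Pola1 had the highest level of the list, with 65.7 CPM in wild type, 57.5 in the scrambled group and 64.6 in the Cdk5i group, and edgeR adjusted p values of 0.419, 0.922 and 0.940 in the 3 comparisons.

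Several markers of division had few counts. Of 25 mitosis genes 11 were tested, and the proliferation markers Mki67 and Top2a had 0 to 10 and 0 to 3 counts per library. Cdk1, the mitotic kinase, had 0 to 2 counts and Ccnb1, its cyclin, 0 to 2. The tested genes with the highest levels were Cdc25b, Bub1b and Ccnb2, with log2 fold changes of 0.14, 0.26 and 0.03 for scrambled peptide against wild type and edgeR adjusted p values of 0.729, 0.949 and 0.971. The median of the list was 0.02 for this comparison and -0.06 between the peptides.

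The DREAM and MuvB complex, in which p107 or p130 holds cell cycle genes silent, had 11 of 11 genes tested, 8 of them positive for scrambled peptide against wild type (median 0.06) and 4 between the peptides (median -0.05). Its most abundant members were Dyrk1a, the kinase that starts its assembly, and the E2F partners Tfdp1 and Tfdp2. Tfdp2 measured 106.5 CPM in wild type, 117.0 in the scrambled group and 113.4 in the Cdk5i group, with an edgeR adjusted p of 0.527 for scrambled peptide against wild type. Of 19 tested p53 target genes 12 were positive in that comparison, with a median of 0.06. Sesn1, Plk2 and Zmat3 had the highest levels among them, with log2 fold changes of 0.06, -0.04 and 0.10.

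Other cyclins and their kinases numbered 34 tested of 38, with 16 positive for scrambled peptide against wild type and a median of -0.0036. Cdk8 of the Mediator complex measured 1349 CPM in wild type, 1106 in the scrambled group and 919 in the Cdk5i group in overlapping groups, and Cdk14 had a log2 fold change of -0.11 for scrambled peptide against wild type. Of 28 genes acting upstream of the D-type cyclins 27 were tested, 14 of them positive in that comparison, with a median of 0.01. Braf, a kinase of the growth factor signal, had a log2 fold change of -0.06 there (edgeR adjusted p = 0.826).

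**Figure D4:**
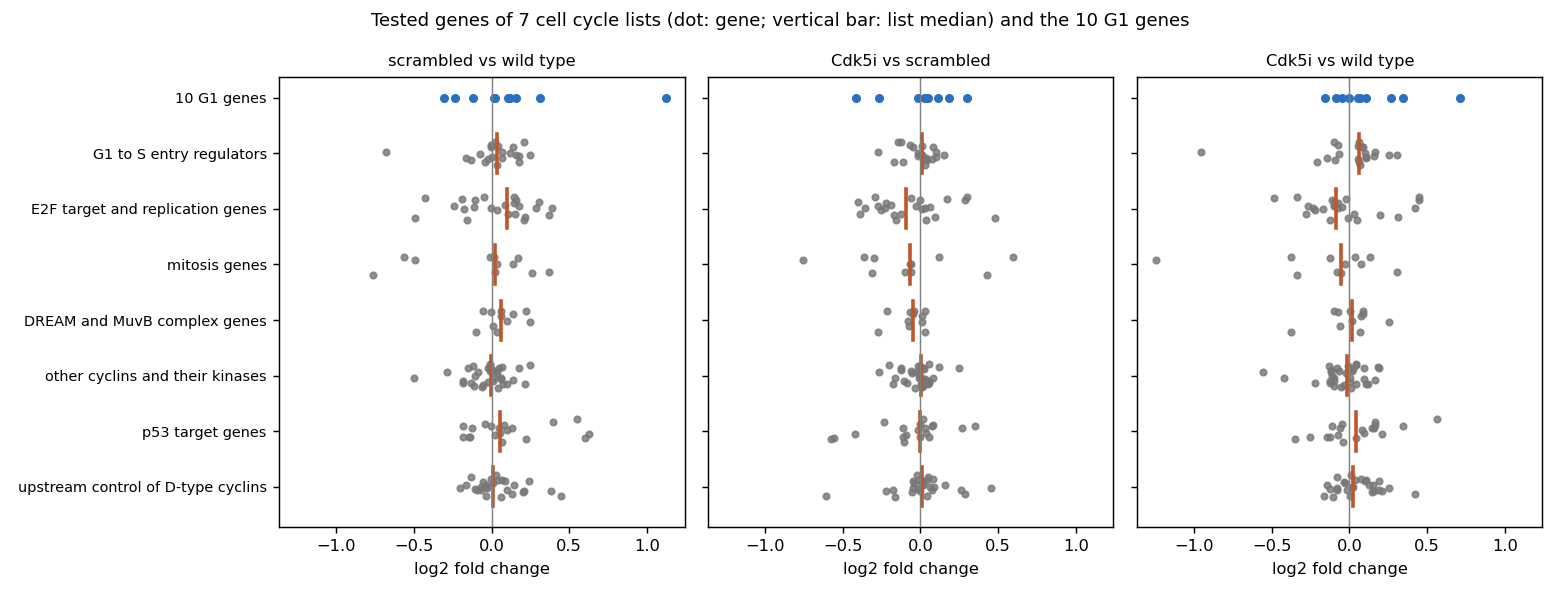
Log2 fold change of each tested gene (grey dots) in 7 cell cycle lists, with the list median (orange bar), and of the 10 G1 genes (blue), in the 3 comparisons; vertical position within a list is only spacing. List medians lie between -0.09 and 0.10, and Ccnd3 is the blue point at 1.12 in the first panel.

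The genes around Ccnd3 were examined next. Within 500 kb 13 genes were tested, and edgeR called 0 in each comparison. An unadjusted edgeR p under 0.05 was found for 1, 3 and 1 of them in the first, the second and the third comparison, against 10.1, 5.33 and 11.0% of all genes. Their median log2 fold change was 0.08 for scrambled peptide against wild type, in a range of -0.23 to 0.99, the highest being the ribosomal RNA gene n-R5s28, named after its value was seen. Taf8, a gene of the transcription factor TFIID, lies on the other strand, with its start 2759 bases before Ccnd3. It measured 8.66 ± 0.641 CPM in wild type, 10.3 ± 0.910 in the scrambled group and 8.02 ± 0.553 in the Cdk5i group (SD, n = 3). Its log2 fold change of -0.37 between the peptides had no overlap of groups but did not pass (edgeR adjusted p = 0.768).

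Bysl, a ribosome assembly gene that overlaps the end of Ccnd3 on the other strand, had log2 fold changes of 0.20 for scrambled peptide against wild type and -0.27 between the peptides (edgeR adjusted p = 0.670 and 0.933). Of the other nearest tested genes, Gm20517 and Usp49 downstream had log2 fold changes of -0.12 and -0.02 for scrambled peptide against wild type, and Guca1b and Mrps10 upstream -0.23 and -0.04. Gm20517 (47611589 to 47683861) and Usp49 (47630690 to 47686738) overlap on the same strand, over most of Usp49. Read pairs in the shared part were left out of the counts, so both values rest on the remainder. For Cdk5i against wild type Taf8 and Bysl were at -0.11 and -0.07, where Ccnd3 was at 0.71.

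**Figure D5:**
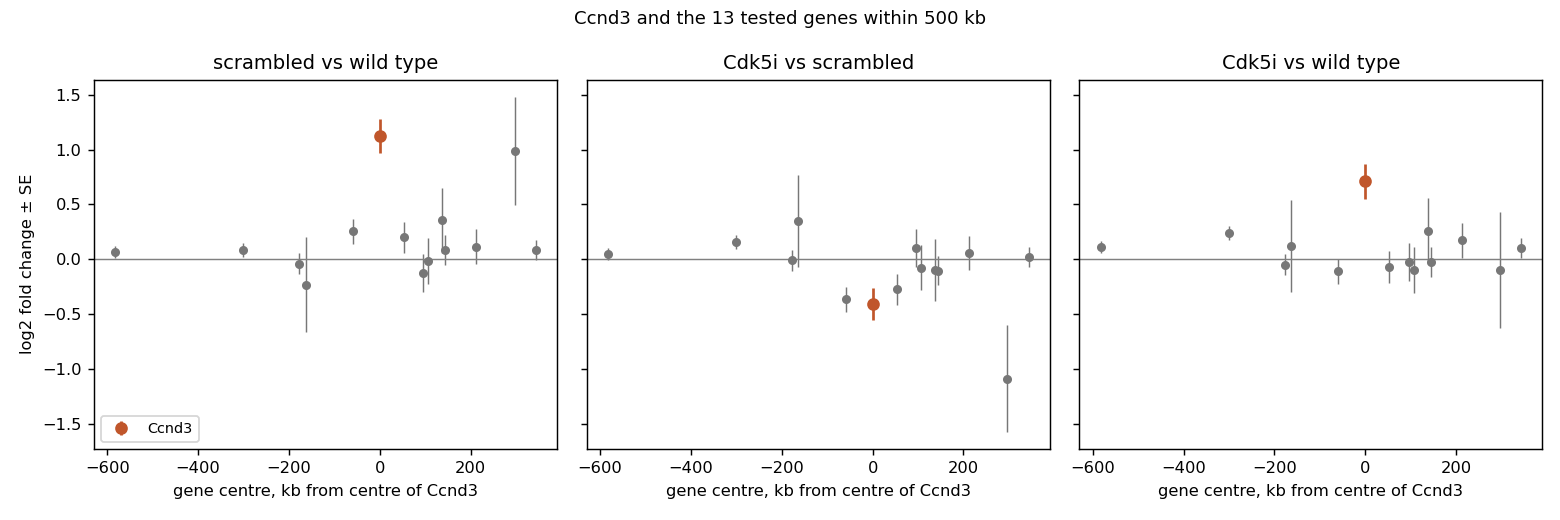
Log2 fold change with its SE of Ccnd3 (orange) and of the 13 tested genes within 500 kb (grey), against the distance of each gene's centre from that of Ccnd3, in the 3 comparisons. Ccnd3 is at 1.12, -0.41 and 0.71, and the nearest gene upstream, Taf8, at 0.25, -0.37 and -0.11.

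The genes whose log2 CPM followed Ccnd3 most closely over the 9 libraries were Pqlc2 (Pearson's r = 0.95), D430001F17Rik (0.93), Nr1d1 (0.93), Rpap3 (0.92) and Prrc2b (0.92). They were the highest of 16045 genes compared, the points are the same libraries with the same depth and groups, and the values are descriptive. Nr1d1, the gene of the circadian repressor REV-ERBα, measured 17.8 ± 1.67 CPM in wild type, 24.8 ± 0.699 in the scrambled group and 21.9 ± 1.32 in the Cdk5i group (SD, n = 3). Of the other 9 members Ccnd2 was nearest to Ccnd3 (r = 0.52, place 1773 of 16045) and Cdk6 farthest (r = -0.45).

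Other cell types can carry D-type cyclin RNA. The 10 oligodendrocyte markers summed to 74.5 to 84.2 CPM in wild type, 84.4 to 111.4 in the scrambled group, and 78.8 to 123.8 in the Cdk5i group, with 78.8% of the sum from Mbp and 8 of 10 genes tested. Without Mbp the ranges were 14.6 to 18.2, 19.8 to 25.9 and 16.7 to 23.0 CPM. The 10 microglial markers summed to 54.0 to 160.1 CPM in wild type, 70.1 to 83.0 in the scrambled group, and 57.6 to 134.7 in the Cdk5i group, with 6 of 10 genes tested. Excitatory neuron markers ranged from 1340 to 1348, 1382 to 1459 and 1202 to 1572 CPM, and inhibitory neuron markers from 2207 to 2603, 1974 to 2155 and 2264 to 2527 CPM, in wild type, scrambled peptide and Cdk5i. Camk2a made up 38.1% of the excitatory sum. Without Camk2a the ranges were 863.8 to 865.8, 841.2 to 911.3 and 708.1 to 960.0 CPM. Against wild type, 7 of the 10 excitatory markers had negative log2 fold changes with either peptide. Erbb4 made up 45.8% of the inhibitory sum. Without Erbb4 the ranges were 1210.5 to 1382.2, 1059.0 to 1163.7 and 1253.8 to 1433.2 CPM. For scrambled peptide against wild type, 6 of the 11 inhibitory markers had positive log2 fold changes and 5 negative. Between the peptides 8 of these were positive and 3 negative. No listed marker was at 0 in all libraries. Astrocyte markers ranged from 469.9 to 553.3, 401.8 to 517.8 and 353.3 to 520.7 CPM, oligodendrocyte precursor markers from 800.4 to 947.5, 862.1 to 935.6 and 890.8 to 922.5 CPM, and endothelial and pericyte markers from 3.90 to 4.69, 4.13 to 4.87 and 3.53 to 5.07 CPM. Cdk5i replicate 2, the highest library for Ccnd1, Ccnd2, Cdk6 and Cdkn1a, also had the highest endothelial sum and, with Mbp, the highest oligodendrocyte sum. Without Mbp the highest oligodendrocyte sum was in the scrambled group. The part of these cells in those levels was not tested. The mean oligodendrocyte sum without Mbp was highest in the scrambled group and lowest in wild type, as Ccnd3 was. With Mbp it was highest with Cdk5i, at 80.0, 100.4 and 101.8 CPM in wild type, scrambled peptide and Cdk5i. The part of oligodendrocyte RNA in the level of Ccnd3 was not tested.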

How the data were processed

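Nuclear RNA was made into stranded total RNA libraries from low input, per the labels' protocols, and read as pairs of 40 bases, per the labels. The authors deposited raw counts, one whole number for each gene and library, made with featureCounts 2.0.0 on whole genes of Ensembl release 102 with reversed strand, per the file headers. Pairs over several same-strand genes are left out. The submitters' processing notes name GRCm38 and STAR 2.7.9a. Symbols came from a reference table (55141 of 55401 matched).

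Counts were fitted with edgeR 4.0.16 in R 4.3.3: filterByExpr with 10 counts, TMM, 1 robust quasi-likelihood model of 9 libraries and 3 groups, Benjamini-Hochberg adjustment over 16046 genes at 0.05. The procedure was run on simulated counts, with changes larger than those of the 9 members other than Ccnd3. It was not tried on changes as small as theirs. The median SE of a log2 fold change was 0.14, and PCR reads are not independent molecules. Alternatives were DESeq2 1.42.0, limma 3.58.1 (voom), other scaling, filters, dispersion and samples, the replicate number as a block, and each library left out.

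Members and lists were chosen with earlier results of these data known. Named were the members, the 3 most abundant genes of each list and any past the threshold, the 3 nearest tested genes on each side of Ccnd3, and the 5 genes most like it. Some genes that this rule names are not reported here. One gene, Ccnd3, entered for its value in the first comparison. Genes named to describe low counts, and single markers, were chosen after their values were seen.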

Additional observations from a re-analysis of the deposited data

How the results depend on the processing

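Ccnd3 kept its direction in each comparison under each of the 17 alternatives. It was picked by its direction for scrambled peptide against wild type, and the other comparisons share libraries with that one. Nothing is read from the kept direction. Of 453 values of the other 9 members, 0 passed the threshold under any alternative (lowest adjusted p 0.223, by edgeR without the low-count filter). Among those values, DESeq2 gave no adjusted p for Ccnd1, Cdkn1a and Cdkn1b in Cdk5i against wild type, so these were not put to the threshold. The number of members past the threshold for scrambled peptide against wild type is 1 by the choice of Ccnd3, so it supports nothing; it was 0 with the replicate number as a block and 0 to 1 with 1 library left out. For Cdk5i against wild type it was 1 in place of 0 with DESeq2 and without the low-count filter, Ccnd3 both times.

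The number of all genes past the threshold was 13, 2 and 12 for scrambled peptide with wild type, Cdk5i with scrambled peptide, and Cdk5i with wild type. In that order it was 75, 27 and 111 with DESeq2 and 318, 159 and 408 without the low-count filter, and with 1 library left out it ran from 2 to 17, 2 to 18 and 2 to 14. For the comparisons with wild type it was 6 and 6 with a filter of 50 counts, 6 and 3 with non-robust dispersion and 2 and 2 with the replicate block. With only the groups compared it was 2 for Cdk5i against wild type. The cause was not tested.

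Same-numbered libraries did not deviate together (r from -0.31 to 0.17 over 9 pairs), and 1 of 9 libraries correlated best with its own number, so the numbers were not used as pairs. Some members changed sign, and not only those near 0. Without Cdk5i replicate 2, Cdkn1a went from 0.27 to -0.27 for Cdk5i against wild type. Ccnd1 went from 0.18 to -0.25 between the peptides without that library. For Cdk5i against wild type, Cdk6 (-0.0034) was at 0.00064 with DESeq2, 0.00075 with DESeq2 size factors, 0.0094 without the filter and 0.0017 with only the groups compared. With 1 library left out, log2 fold changes for scrambled peptide against wild type ran from -0.038 to 0.41 for Cdk4, -0.25 to 0.45 for Cdkn1a, -0.051 to 0.23 for Cdkn1b, -0.020 to 0.089 for Rb1 and -0.015 to 0.054 for Rbl2. Between the peptides they ran from -0.25 to 0.39 for Ccnd1, -0.12 to 0.16 for Ccnd2, -0.11 to 0.10 for Cdk4, -0.43 to 0.52 for Cdkn1a, -0.015 to 0.15 for Rb1 and -0.035 to 0.12 for Rbl1. For Cdk5i against wild type they ran from -0.48 to 0.16 for Ccnd1, -0.052 to 0.39 for Cdk4, -0.20 to 0.12 for Cdk6, -0.27 to 0.56 for Cdkn1a and -0.19 to 0.026 for Rbl1. Low counts, 16 to 58 per library, limit the precision of Cdkn1a and Ccnd1, and Cdkn1a spread between libraries by 34.4 to 53.8% of its group means, beyond its counting error of 17.3 to 20.6%. Cdkn1a and Ccnd1 were below the filter of 50 counts and have no value there.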

Other observations

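Among the listed genes that did not pass over all genes, some had groups that did not overlap, and those given here were chosen after their values were seen. For scrambled peptide against wild type, 12 of the 142 tested list genes lay higher without overlap and 9 lower. For Cdk5i against wild type 10 lay higher and 5 lower. Groups did not overlap for 16.3% of all genes in each of these comparisons, so nothing is read from the genes given here. E2f4, the E2F that works with p130 in resting cells, measured 7.58 ± 0.244 CPM in wild type, 8.99 ± 0.402 in the scrambled group and 9.06 ± 0.0297 in the Cdk5i group (SD, n = 3). Both transgenic groups lay above wild type, with log2 fold changes of 0.24 and 0.26 and edgeR adjusted p values of 0.441 and 0.384. E2f7, a repressor of the E2F family, measured 1.68 ± 0.0506 CPM in wild type, 1.04 ± 0.0706 in the scrambled group and 0.855 ± 0.250 in the Cdk5i group, with log2 fold changes against wild type of -0.68 and -0.95 and edgeR adjusted p values of 0.403 and 0.235. Aen, a nuclease gene that p53 induces, measured 3.58 ± 0.482 CPM in wild type, 5.23 ± 0.0829 in the scrambled group and 5.28 ± 0.533 in the Cdk5i group, with log2 fold changes against wild type of 0.55 and 0.56 and edgeR adjusted p values of 0.285 and 0.221. The comparisons with wild type share its 3 libraries. Between the peptides the log2 fold changes were 0.01 for E2f4, 0.01 for Aen and -0.27 for E2f7, with overlapping groups.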
